A study of Homo sapiens with 4 samples.

Results

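The 10 major heterogeneous nuclear ribonucleoprotein (hnRNP) genes HNRNPA1, HNRNPA2B1, HNRNPA3, HNRNPC, HNRNPD, HNRNPF, HNRNPH1, HNRNPK, HNRNPM and HNRNPU were followed in 4 RNA-seq libraries of HEK293 cells, a transformed human line from embryonic kidney with an abnormal chromosome number. They were taken by symbol from the 78686 features of the count tables, with pseudogenes bearing their names left out, and each symbol matched 1 feature. No expression value entered this rule, though it was set with earlier results of these data known. All 10 had counts in every library and all 10 passed the filter on low counts.

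The KO group holds 2 libraries of HEMK1 KO cells, clone 1F8, grown from 1 sorted cell after transfection with a pool of 2 Cas9 plasmids with different guides. The WT group holds 2 libraries of unedited HEK293 cells, for which no sorting or cloning step is described. Both groups grew in the same medium, with no treatment beyond the editing, and polyadenylated RNA was profiled from each. HEMK1 is a methyltransferase for release factors of mitochondrial translation, and the design sets KO cells beside their WT counterparts. Because all KO cells descend from 1 clone, effects of HEMK1 loss and traits particular to the clone cannot be told apart. The replicates are called biological in the labels without a statement that they are separate cultures, so p-values measure only the spread between these libraries. In bulk RNA, fewer cells with a transcript and less of it per cell cannot be told apart.

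The proteins made by these genes coat newly made transcripts in the nucleus. Each binds short RNA motifs through RNA recognition motifs, KH domains or an RGG box, and together they steer splice site choice, 3′ end formation, export, translation and decay. They are among the most abundant nuclear proteins of dividing cells, and several of them limit their own mRNA through splicing of their own transcripts. Many have intronless genomic copies (processed pseudogenes), made by reverse transcription of the mRNA.

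Library totals were 2856784 and 3202039 counts in KO libraries and 2476471 and 2671594 counts in WT libraries, with 20530 to 21639 genes detected in each. HEMK1 itself had 1 and 7 counts in KO libraries and 6 and 9 counts in WT libraries, and fitted without a filter its change on the log2 scale was −1.11 ± 0.79 (SE; adjusted p = 0.830 by edgeR), so its mRNA does not check the labels. Of 10 markers for HEK293 and embryonic kidney, 8 were detected, and LHX1 and PAX2 were at 0. The 10 summed to 154 and 160 CPM (counts scaled by the TMM-adjusted library total) in KO libraries and 197 and 191 CPM in WT libraries. The 8 blood and immune markers summed to 3.10 and 9.55 CPM in KO libraries and 0 CPM in both WT libraries. The 6 fibroblast markers summed to 45.8 and 34.4 CPM in KO libraries and 29.6 and 24.98 CPM in WT libraries, with COL1A2 and DCN at 0. The 4 endothelial markers stayed at or below 1.10 CPM in each library, with CDH5 at 0. The part of these markers in the hnRNP values was not tested.

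The counts of HNRNPC, HNRNPK and HNRNPA1 have to be read beside those of their genomic copies. Parts of the copies named below match a transcript of the parent letter for letter. Pairs of sequences are printed for HNRNPC and HNRNPK, and none for HNRNPA1. The printed stretches were chosen to hold differences, so they show where parent and copy differ. Each pair is the first gap-free stretch of 60 bases with at least 2 differences in an alignment of the coding sequence with the copy. Capitals mark the bases that differ, each sequence is the sense strand of the transcript, and the sequences are GENCODE 29 transcripts of GRCh38. The stretch of HNRNPC covers bases 279 to 338 of its coding sequence and that of HNRNPK bases 1 to 60.
HNRNPC: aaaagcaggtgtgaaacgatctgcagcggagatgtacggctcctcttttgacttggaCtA
HNRNPCP2: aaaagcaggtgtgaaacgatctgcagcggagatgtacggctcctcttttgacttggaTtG
HNRNPK: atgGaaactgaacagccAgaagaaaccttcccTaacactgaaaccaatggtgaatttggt
HNRNPKP4: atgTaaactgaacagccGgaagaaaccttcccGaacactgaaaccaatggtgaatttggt
Over the whole alignment HNRNPCP2 was 98.7% identical to the HNRNPC coding sequence (10 mismatches and 1 gap in 879 columns), HNRNPKP4 was 96.5% identical to that of HNRNPK over 1386 columns, and HNRNPA1L3 was 99.4% identical to that of HNRNPA1 (6 mismatches in 960 columns). Of all stretches of 50 bases in the copy, 53.6% for HNRNPCP2, 15.9% for HNRNPKP4 and 45.5% for HNRNPA1L3 occur letter for letter in a transcript of the parent gene. A read that falls within such a stretch matches both places, and how the authors' counting treated it is not given in the sources used here.

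No hnRNP gene of the 10 passed the test for a difference between KO and WT libraries. Of the 10, 0 passed an adjusted p of 0.05 by edgeR's quasi-likelihood test, beside 0.328% of the 10670 genes tested, and 0 passed an unadjusted p of 0.05, beside 8.43% of all genes (4.09% higher and 4.35% lower). The fitted log2 fold change of KO over WT was above 0 for 9 genes and below 0 for 1, HNRNPH1, and 51.2% of all genes tested were above 0. These values ran from −0.17 to 0.23 with a median of 0.13, and the median of all genes tested was 0.00919 with quartiles at −0.21 and 0.21. The 10 point estimates thus lie inside or just outside the middle range of all genes. In CPM the groups overlapped for 7 of the 10 and did not for HNRNPC, HNRNPK and HNRNPH1, and 39.2% of all genes tested did not overlap.

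**Figure D1:**
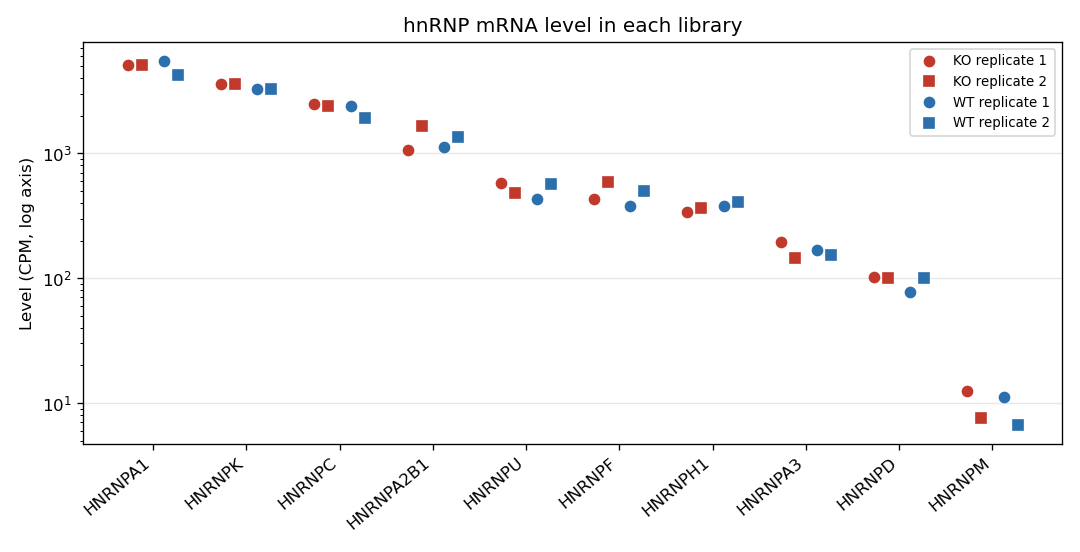
Level of the 10 hnRNP genes in each library, in TMM-scaled CPM on a log axis, with KO libraries in red left of WT libraries in blue and each point 1 library. The points span from 5517 CPM (HNRNPA1, WT replicate 1) to 6.61 CPM (HNRNPM, WT replicate 2). For 7 of the 10 genes the KO and WT points overlap, and 39.2% of all genes tested did not overlap.

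The A/B group is the best known of the family. HNRNPA1 (ENSG00000135486.19, chr12:54280193-54287088 of GRCh38, plus strand) binds UAG-containing motifs through a pair of RNA recognition motifs and is the classic antagonist of SR proteins in splice site choice. It had 5134 and 5118 CPM in KO libraries and 5517 and 4205 CPM in WT libraries. The KO libraries were nearly equal and lay between the WT libraries, which were 1.31-fold apart. The mean level was 5126 ± 11.4 CPM in KO libraries and 4861 ± 927 CPM in WT libraries (SD, n = 2 each). On the log2 scale the difference was 0.08 ± 0.17 (SE; edgeR adjusted p = 0.949), a fold of 1.05 with a 95% interval from 0.810 to 1.37. Without WT replicate 2, the library with the lowest value, the log2 fold change was −0.14.

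HNRNPA2B1 (ENSG00000122566.23, chr7:26173057-26201529, minus strand) encodes a close relative of hnRNP A1 that also sorts RNAs for transport. It had 1068 and 1644 CPM in KO libraries and 1129 and 1352 CPM in WT libraries. Both the lowest and the highest of the 4 values came from KO libraries, 1.54-fold apart, so the spread within the KO group exceeded the difference between the groups. KO over WT gave a log2 value of 0.13 ± 0.20 (SE; edgeR adjusted p = 0.927), and it was −0.21 without KO replicate 2.

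HNRNPA3 (ENSG00000170144.23, chr2:177212563-177223958, plus strand) encodes the least abundant transcript of the 3 A/B genes. Its level was 196 and 145 CPM in KO libraries and 169 and 152 CPM in WT libraries, and the WT values fell between the KO values. The log2 fold change was 0.08 ± 0.17 (SE; edgeR adjusted p = 0.939), and it turned to −0.02 without WT replicate 2 and to −0.18 without KO replicate 1. The counts of HNRNPA2B1 relative to those of HNRNPA1 and of HNRNPA3 followed the replicate number more than the genotype. There were 4.81 and 3.11 HNRNPA1 counts per HNRNPA2B1 count in KO replicates 1 and 2, and 4.88 and 3.11 in WT replicates 1 and 2. The ratio of HNRNPA2B1 to HNRNPA3 was 5.46 and 11.3 in KO libraries and 6.69 and 8.87 in WT libraries. HNRNPA1 relative to HNRNPA3 did not follow the replicate number, being higher in replicate 2 in KO and in replicate 1 in WT. Over all genes, deviations from the group means in same-numbered libraries correlated at −0.0351, so same-numbered libraries did not deviate together across the transcriptome.

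HNRNPC (ENSG00000092199.19, chr14:21209136-21269494, minus strand) encodes the protein that binds uridine tracts as a tetramer and keeps Alu-derived sequence from being spliced into mRNA. It had 2474 and 2387 CPM in KO libraries and 2378 and 1910 CPM in WT libraries. Both KO libraries were above both WT libraries, but KO replicate 2 exceeded WT replicate 1 by less than the 2 KO libraries differed from each other. The log2 fold change was 0.18 ± 0.16 (SE; edgeR adjusted p = 0.826), with a fold of 1.13 and a 95% interval from 0.892 to 1.44. It was −0.0011 without WT replicate 2.

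HNRNPK (ENSG00000165119.23, chr9:83968083-83980616, minus strand) encodes a KH domain protein that binds cytidine-rich RNA and DNA and acts in transcription, splicing and translation. Its 4 values were the tightest of the family, at 3585 and 3575 CPM in KO libraries and 3246 and 3278 CPM in WT libraries. The groups did not overlap, and the libraries of a group differed by less than 1.01-fold. The log2 fold change was 0.13 ± 0.15 (SE; edgeR adjusted p = 0.878), a fold of 1.10 with a 95% interval from 0.877 to 1.37. The spread that edgeR assigns to a gene draws on genes of like level, so this interval is wider than the 4 values alone would give. HNRNPK kept its direction under each of 13 alternatives, with values from 0.10 to 0.16.

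HNRNPF and HNRNPH1 encode paralogous proteins that bind runs of guanosines through quasi-RNA recognition motifs and can promote or block inclusion of the same exons. HNRNPF (ENSG00000169813.17, chr10:43385617-43409166, minus strand) had 433 and 592 CPM in KO libraries and 376 and 499 CPM in WT libraries. HNRNPH1 (ENSG00000169045.19, chr5:179614178-179634784, minus strand) had 337 and 362 CPM in KO libraries and 379 and 409 CPM in WT libraries. The HNRNPF groups overlapped, and both KO values of HNRNPH1 were below both WT values. The log2 fold change of HNRNPF was the highest of the 10, at 0.23 ± 0.18 (SE; edgeR adjusted p = 0.792), and it was −0.00946 without KO replicate 2. HNRNPH1 was the 1 gene with an estimate below 0, at −0.17 ± 0.13 (SE; edgeR adjusted p = 0.786), and it stayed below 0 under each of 12 alternatives. Its fold was 0.887 with a 95% interval from 0.726 to 1.08. The ratio of HNRNPF to HNRNPH1 counts was 1.29 and 1.64 in KO libraries and 0.992 and 1.22 in WT libraries. Both KO ratios lay above both WT ratios. Ratios were formed for only a few chosen pairs of the 10 genes, so they do not speak for the other pairs. Of those formed, HNRNPA1 to HNRNPC also separated the groups. It was 2.08 and 2.14 in KO libraries and 2.32 and 2.20 in WT libraries, and the rest of those formed overlapped. No test was made of these ratios, and no share of separated ratios over all gene pairs was taken.

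HNRNPD (ENSG00000138668.20, chr4:82352498-82374503, minus strand), also called AUF1, encodes a protein that binds AU-rich elements and regulates mRNA decay. It had 102 and 100.0 CPM in KO libraries and 78.0 and 100.3 CPM in WT libraries. WT replicate 1 stood low and the other 3 libraries were nearly equal, so the groups overlapped. Its estimate was 0.18 ± 0.17 on the log2 scale (SE; edgeR adjusted p = 0.849), and it was 0.01 without WT replicate 1 and 0.34 without WT replicate 2.

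HNRNPU (ENSG00000153187.21, chr1:244840638-244864560, minus strand), or SAF-A, encodes a protein that binds scaffold-attached DNA as well as RNA and helps to keep RNA on chromatin. It had 578 and 484 CPM in KO libraries and 429 and 570 CPM in WT libraries. The groups overlapped, and KO over WT was 0.09 ± 0.16 on the log2 scale (SE; edgeR adjusted p = 0.937). The sign changed when either replicate 1 was left out, to −0.08 without KO replicate 1 and to −0.10 without WT replicate 1.

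HNRNPM (ENSG00000099783.13, chr19:8444767-8489114, plus strand) encodes a splicing factor that binds GU-rich motifs and is known from alternative splicing during epithelial-mesenchymal transition. It stood apart from the other 9 by its low level, with 36 and 24 counts in KO libraries and 27 and 18 counts in WT libraries. These counts correspond to 12.4 and 7.64 CPM in KO libraries and 11.1 and 6.61 CPM in WT libraries. Replicate 1 was above replicate 2 in both groups. KO over WT was 0.18 ± 0.40 on the log2 scale (SE; edgeR adjusted p = 0.946), with the widest 95% interval of the 10, from −0.69 to 1.05, so any KO level between 0.622 and 2.07 times the WT level lies within what these counts allow. Without WT replicate 2 the value was −0.19, and without KO replicate 1 it was −0.23.

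**Figure D2:**
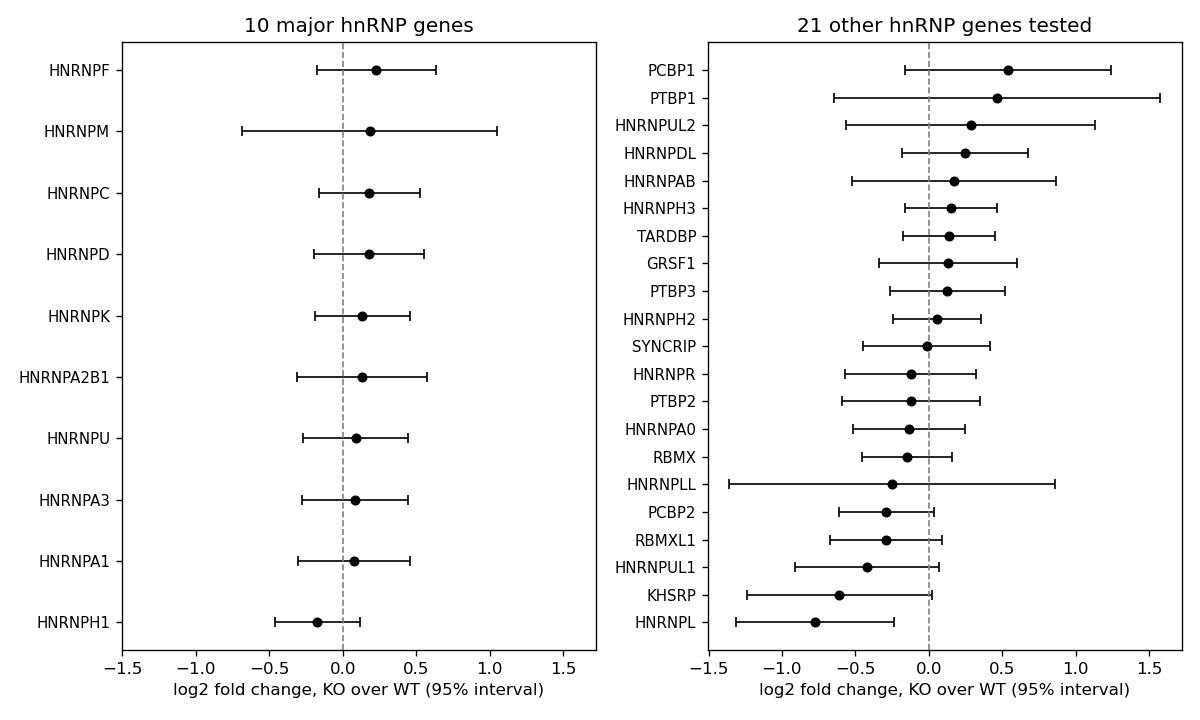
KO over WT on the log2 scale, with 95% intervals from edgeR's quasi-likelihood fit, for the 10 major hnRNP genes (left) and 21 of the 22 other hnRNP genes tested (right). Each of the 10 intervals on the left includes 0, and on the right HNRNPL, at −0.78, is the gene whose interval lies wholly below 0.

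Together the 10 genes took 1.42% and 1.41% of all counts in KO libraries and 1.35% and 1.27% in WT libraries. The KO libraries were almost equal and both lay above the WT libraries. The mean share was 1.415 ± 0.00177% in KO libraries and 1.31 ± 0.0543% in WT libraries (SD, n = 2 each), a difference of 0.105 percentage points. An exact two-sided permutation test gave p = 0.333, the smallest value that 2 against 2 libraries allow. HNRNPA1, HNRNPK and HNRNPC supply most of these counts, so the share mainly follows them.

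To compare levels between genes, CPM was divided by the median length of the gene's complete coding transcripts. HNRNPA1 was the most abundant per length, at 3032 ± 6.74 CPM per kb in KO libraries and 2876 ± 549 in WT libraries (SD, n = 2 each). HNRNPC followed at 1520 ± 38.7 and 1341 ± 207 CPM per kb in KO and WT libraries, and HNRNPK at 1283 ± 2.45 and 1169 ± 8.15 in KO and WT libraries. HNRNPA2B1 came next at 385 ± 116 CPM per kb in KO libraries and 353 ± 44.8 in WT libraries. A middle class on this scale was formed by HNRNPF (192 in KO, 164 in WT), HNRNPH1 (160 in KO, 181 in WT) and HNRNPU (126 in KO, 118 in WT). HNRNPA3 had 82.4 CPM per kb in KO libraries and 77.7 in WT libraries, HNRNPD had 60.6 in KO and 53.5 in WT libraries, and HNRNPM had 4.02 in KO and 3.55 in WT libraries. HNRNPA1 and HNRNPM were thus at opposite ends of the order in both groups, far from their neighbours. Across the 4 libraries, neighbours in this order overlapped for HNRNPC with HNRNPK and for HNRNPF with HNRNPH1. HNRNPC was above HNRNPK in 4 of 4 libraries, and HNRNPF was above HNRNPH1 in 2 of 4, both of them KO libraries. The order depends on the length used. With the union of all annotated exons, a length chosen after the values were seen, 4 of 10 positions were the same, HNRNPK passed HNRNPC, HNRNPF passed HNRNPA2B1 and HNRNPA3 passed HNRNPU.

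Genes that overlap a major hnRNP gene, or start within 1000 bases of one on the other strand, were examined because reads on both strands may have been counted together. HNRNPK-AS1 (chr9:83972233-83975777, opposite strand) shares 309 of its 390 exon bases with exons of HNRNPK. It had 1142 and 1135 CPM in KO libraries and 910 and 1001 CPM in WT libraries, both KO libraries above both WT libraries, as for HNRNPK itself. Its log2 fold change was 0.25 ± 0.14 (SE; edgeR adjusted p = 0.664). Whether the kit marked strand and the counting used it is not given in the sources used here, so the reads of these 2 genes cannot be told apart. With the counts of HNRNPK-AS1 added to HNRNPK, the log2 fold change of HNRNPK was 0.16 ± 0.15 (SE; edgeR adjusted p = 0.844).

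Of the genes that start near an A/B gene on the other strand, the tested ones, CBX5 and CBX3, encode heterochromatin proteins, and an antisense RNA gene that starts 99 bases from HNRNPA3 had 2 and 1 counts in KO libraries and 2 and 7 counts in WT libraries and was not tested. CBX5, which encodes HP1 alpha and starts 60 bases from the start of HNRNPA1, had 1759 and 1816 CPM in KO libraries and 1874 and 2340 CPM in WT libraries, giving −0.24 ± 0.16 on the log2 scale (SE; edgeR adjusted p = 0.723). CBX3, which encodes HP1 gamma and starts 367 bases from HNRNPA2B1 with 368 exon bases in common, had 264 and 350 CPM in KO libraries and 207 and 275 CPM in WT libraries (0.35 ± 0.18; edgeR adjusted p = 0.642). Neither neighbour passed the test, and the estimate lay below 0 for CBX5 and above 0 for HNRNPA1. NFE2L3, a transcription factor gene annotated over HNRNPA2B1, had 10.7 and 9.55 CPM in KO libraries and 6.16 and 7.35 CPM in WT libraries (0.57 ± 0.36; edgeR adjusted p = 0.708). RMI1, a subunit of a DNA helicase and topoisomerase complex whose gene starts 95 bases from HNRNPK, had 80.5 and 85.7 CPM in KO libraries and 78.8 and 86.0 CPM in WT libraries (0.01 ± 0.16; edgeR adjusted p = 0.995). The KO and WT values of RMI1 were nearly the same. COX20, an assembly factor of cytochrome c oxidase whose annotated exons share 3502 of 4864 bases with HNRNPU, had 59.9 and 67.5 CPM in KO libraries and 48.4 and 60.2 CPM in WT libraries (0.23 ± 0.19; edgeR adjusted p = 0.812). Its reads and those of HNRNPU are likewise uncertain.

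Counts assigned to genomic copies were few beside those of their parents. Of 113 pseudogenes named after the 10 genes, 60 had at least 1 count, and 74 of the 113 bear the name of HNRNPA1. Their summed level was 265 and 276 CPM in KO libraries and 480 and 262 CPM in WT libraries. WT replicate 1 stood far above the other 3 libraries, which were close together. Relative to the parent's counts, copies of HNRNPA1 other than HNRNPA1L3 had 2.26% and 2.36% in KO libraries and 4.46% and 2.86% in WT libraries. Copies of HNRNPC had 3.24% and 3.72% in KO libraries and 5.51% and 3.75% in WT libraries. Copies of HNRNPK had 1.72% and 1.72% in KO libraries and 2.96% and 1.87% in WT libraries, and copies of HNRNPA3 had 2.64% and 2.20% in KO libraries and 3.89% and 4.10% in WT libraries. These 4 parents are those with at least 3 copies that had counts, and for each of them both KO percentages were below both WT percentages, by a small margin for HNRNPC (KO replicate 2 against WT replicate 2). Of 3 further parents with 1 such copy each, HNRNPU lay the other way, at 0.298% and 0.263% in KO libraries and 0.0958% and 0.258% in WT libraries, on 5 and 4 copy counts in KO libraries and 1 and 4 in WT libraries. Copies of HNRNPH1 and HNRNPD had at most 3 counts in a library. All these percentages draw on the same 4 libraries, and 39.2% of all genes tested did not overlap in CPM. Their direction is therefore not read as a result.

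**Figure D3:**
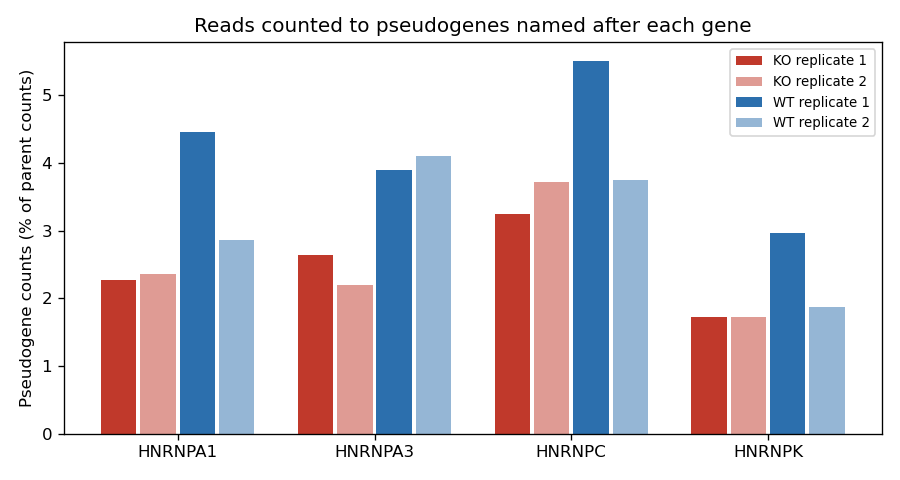
Counts of pseudogenes named after HNRNPA1, HNRNPA3, HNRNPC and HNRNPK as a percentage of the parent gene's counts, 1 bar per library, KO libraries in red left of WT libraries in blue. For HNRNPA1, HNRNPC and HNRNPK the bar of WT replicate 1 is the tallest, at 4.46%, 5.51% and 2.96%.

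Of 16 copies with enough counts to be tested, none passed an adjusted p of 0.05 by edgeR, and at an unadjusted p under 0.05 there were 4 lower and 0 higher, beside 4.35% and 4.09% of all genes tested. The filter bears on that count. HNRNPA1P59, with 1 and 0 counts in KO libraries and 11 and 11 counts in WT libraries, had the lowest adjusted p (0.114 by edgeR) and reached the filter level in WT libraries alone. HNRNPA1P33, with 9 and 12 counts in KO libraries and 23 and 15 counts in WT libraries, also needed a WT library to pass. Of the 16 copies, 14 had an estimate below 0 and 2 above 0, beside 51.2% of all genes tested above 0. Of the 15 that reached the filter level in at least 1 library of each group, 13 were below 0 and 2 above 0. The copies draw on the same libraries, and the source of their shared direction was not tested. This direction is not read as a result. HNRNPCP2, the copy set beside HNRNPC in the sequence pairs, had the most counts of these 16 copies. Its level was 69.2 and 77.7 CPM in KO libraries and 106 and 59.9 CPM in WT libraries (−0.17 ± 0.25; edgeR adjusted p = 0.920). HNRNPA1P4 followed with 51.9 and 49.0 CPM in KO libraries and 97.7 and 41.1 CPM in WT libraries (−0.45 ± 0.36; edgeR adjusted p = 0.804). HNRNPKP4 had 44.7 and 45.2 CPM in KO libraries and 68.2 and 40.4 CPM in WT libraries (−0.27 ± 0.24; edgeR adjusted p = 0.840). In all 3 the KO values fell between those of the WT libraries. HNRNPA1L3, which GENCODE 29 lists as HNRNPA1P48 with a protein-coding type and which was picked after its values were seen, likewise had its highest value in WT replicate 1. It had 88.8 and 71.6 CPM in KO libraries and 160 and 74.2 CPM in WT libraries (−0.54 ± 0.34; edgeR adjusted p = 0.718). HNRNPA1L3 is not among the 16 copies, and its counts are in none of the pseudogene sums.

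The other hnRNP genes were taken as a list of 28, of which 22 passed the filter on low counts. None was called by edgeR in either direction, beside 0.0469% of all genes tested called higher and 0.281% called lower. At an unadjusted p under 0.05, 0 were higher and 1 was lower, beside 4.09% and 4.35% of all genes tested. Estimates were above 0 for 11 and below 0 for 11, with a median of 0.02. Both KO libraries lay above both WT libraries for 1 gene and below for 5, and the groups overlapped for 16, whereas 39.2% of all genes tested did not overlap. The smallest p belonged to HNRNPL, which encodes a splicing factor for CA repeats. It had 16.5 and 14.6 CPM in KO libraries and 24.6 and 28.7 CPM in WT libraries (−0.78 ± 0.25; edgeR adjusted p = 0.351). KHSRP, a KH protein of splicing and AU-rich decay, had 11.0 and 12.4 CPM in KO libraries and 20.1 and 15.8 CPM in WT libraries (−0.61 ± 0.29; edgeR adjusted p = 0.595). PCBP2, a poly(C)-binding relative of hnRNP K, had 109 and 122 CPM in KO libraries and 137 and 146 CPM in WT libraries (−0.29 ± 0.15; edgeR adjusted p = 0.640). In each of these 3 the KO values were below the WT values, and none passed the adjusted threshold.

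In the other direction, PCBP1 and HNRNPDL were among the genes with the smallest p. PCBP1, an intronless relative of PCBP2, had 20.6 and 14.6 CPM in KO libraries and 14.8 and 9.55 CPM in WT libraries (0.54 ± 0.32; edgeR adjusted p = 0.695). HNRNPDL, the paralog of HNRNPD, had 75.3 and 56.7 CPM in KO libraries and 54.2 and 56.9 CPM in WT libraries (0.25 ± 0.20; edgeR adjusted p = 0.792). The KO and WT values overlapped for both genes.

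Proteins that work with or beside hnRNPs were taken as a second list. It holds nuclear partners, arginine methyltransferases that modify RGG boxes, and transportins, a family of nuclear import factors. The list also holds factors of nonsense-mediated decay, which degrades the non-productive splice forms of several hnRNP genes. Of its 36 features, 27 were tested and 0 were called in either direction by edgeR, beside 0.328% of all genes tested. At an unadjusted p under 0.05 there were 3 lower and 0 higher, beside 4.35% lower and 4.09% higher of all genes tested. Both KO libraries lay above both WT libraries for 8 and below for 7, and the groups overlapped for 12, beside 39.2% of all genes that did not overlap. Estimates were above 0 for 15 and below 0 for 12, with a median of 0.05. These counts include MATR3, which reached the filter level in WT libraries alone, and UPF3A, which reached it in KO libraries alone, so the direction of both was set by the filter. PRMT1, the main arginine methyltransferase, had 10.7 and 8.92 CPM in KO libraries and 18.5 and 17.6 CPM in WT libraries (−0.88 ± 0.29; edgeR adjusted p = 0.377). MATR3, a nuclear matrix protein, had 8 and 4 counts in KO libraries and 11 and 21 counts in WT libraries (−1.61 ± 0.57; edgeR adjusted p = 0.441). A second feature with this symbol had 0 counts in every library. How the counting treated the 2 features is not given, so the value of MATR3 is uncertain. EWSR1, an RNA-binding protein of the FET family, had 41.6 and 40.4 CPM in KO libraries and 54.6 and 57.3 CPM in WT libraries (−0.45 ± 0.19; edgeR adjusted p = 0.537). PRMT1 and EWSR1 had lower values in both KO libraries than in both WT libraries, without passing the adjusted threshold. Among those with the smallest p above 0 were UPF2 and UPF3A, factors of nonsense-mediated decay. UPF2 had 107 and 103 CPM in KO libraries and 83.8 and 83.8 CPM in WT libraries (0.32 ± 0.15; edgeR adjusted p = 0.603). UPF3A had 15 and 22 counts in KO libraries and 7 and 9 counts in WT libraries (0.97 ± 0.47; edgeR adjusted p = 0.616). For UPF2 both KO libraries were above both WT libraries.

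The low level of HNRNPM was set beside its base composition, a comparison chosen after the values were seen. The mean GC content of its complete coding transcripts is 53.7%, and that of the other 9 major genes is 41.0% to 47.4%. Of 38 hnRNP genes with such transcripts, the 12 with at least 50% GC had a median of 4.25 CPM per kb in KO means and 4.84 in WT means. The highest of these 12 reached 11.6 CPM per kb in KO means (HNRNPAB) and 13.0 in WT means (HNRNPL). The 26 genes under 50% GC had a median of 76.9 CPM per kb in KO means and 82.5 in WT means, and they include the 9 other major genes. HNRNPM was thus close to the middle of the 12 GC-rich hnRNP genes. Some of the 26 genes under 50% GC were about as low. HNRNPLL, at 41.0% GC, had 3.61 CPM per kb in KO means and 4.21 in WT means. Across the 38 genes Spearman's rho between GC content and level was −0.35 in KO means and −0.33 in WT means, a description of genes that share the same 4 libraries. Within the 26 genes under 50% GC, which hold 9 of the 10 major genes, rho was 0.30 in KO means and 0.31 in WT means, and within the 12 others −0.36 in KO means and −0.27 in WT means. How far library preparation or the true mRNA level sets these values was not tested.

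**Figure D4:**
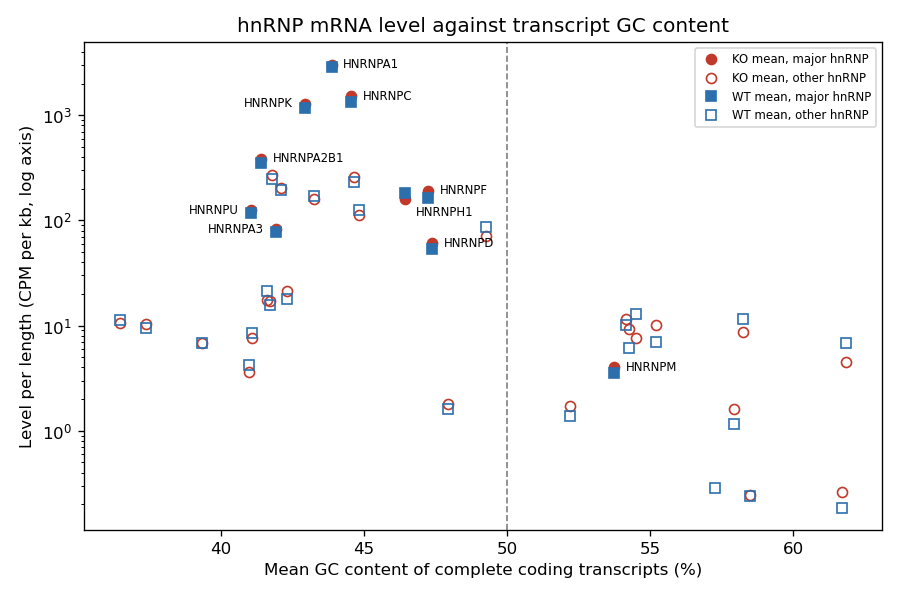
Mean level per length (CPM per kb, log axis) of hnRNP genes against the mean GC content of their complete coding transcripts (percent), with KO means as red circles and WT means as blue squares, filled for the 10 major genes; genes with a group mean of 0 have no point for that group. The dashed line marks 50% GC, and to its right no gene exceeds 13.0 CPM per kb.

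In the authors' deposited table, 9 of the 10 genes had a log2 fold change above 0, from −0.17 to 0.23 with a median of 0.13. The lowest adjusted p among the 10 in the authors' deposited table was 1.00 after rounding.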

How the data were processed

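RNA was profiled from 2 libraries of HEMK1 KO and 2 of WT HEK293 cells, each made with a kit for low input amounts from 100 ng of RNA, per the labels' protocols. The submitters' processing notes name hg38 and the tools Trimmomatic, FastQC, STAR, DESeq2 and HTSeq. Not given in the sources used here are their versions, the annotation, read length, strand setting and handling of multiply mapped reads. The deposited values are raw HTSeq counts per gene, whole numbers with no row of unassigned reads. A second deposited table holds the authors' DESeq2 comparison: the mean signal (counts divided by size factors), the log2 ratio of KO over WT, its standard error and Wald score, and raw and adjusted p-values. It was used only for comparison. Libraries were matched to samples by title.

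Identifiers were matched without version to a table of gene names (61463 of 78686 features, 98.3% of counts) and to GENCODE 29 on GRCh38 (57288 features), which may differ from the authors' annotation. Genes were kept by filterByExpr at a minimum count of 10. TMM factors lay between 0.981 and 1.02, and a robust quasi-likelihood fit by genotype alone was made in edgeR 4.0.16 (R 4.3.3). P-values were adjusted by Benjamini-Hochberg over 10670 genes and called under 0.05. The SE of a log2 fold change is its size divided by the square root of F, and 95% intervals use the test's degrees of freedom. A value written as an estimate ± an error before an edgeR adjusted p is KO over WT on the log2 scale with its SE, n = 2 per group. CPM uses TMM-scaled totals, also in summed marker lists, and the biological coefficient of variation was 0.143. Levels per length use complete coding transcripts of the GENCODE basic set. Without molecular identifiers, duplicate reads cannot be removed from the counts.

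Replicates differed beyond sampling noise (chi-square per degree of freedom 5.38 for KO and 5.01 for WT), so each counted as 1. The labels do not state that the replicate numbers mark a shared batch, so the numbers were not taken as pairs, and a replicate block was run as an alternative. Same-numbered libraries deviated with a correlation of −0.0351 over all genes tested. The tests were tried on simulated counts as a check of the code. The trial does not show whether changes as small as those estimated for the 10 genes would be found. Named were the 10 genes, HEMK1, the 3 genes with the smallest p per direction and any called gene of each list, tested neighbours and the 3 pseudogenes with most counts, except for a few items that are not reported here. The 10 genes and all lists were chosen with earlier results of these data known. Alternatives were RLE size factors, upper quartile scaling, library totals alone, no filter, a mean of at least 5 CPM, DESeq2 1.42.0, the replicate block, each library left out, and pseudogene counts added to their parents. Exon-union length, the addition of HNRNPK-AS1 and the median without HNRNPM were added after seeing the data.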

Additional observations from a re-analysis of the deposited data

How the results depend on the processing

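None of the 10 hnRNP genes was called under any alternative run (121 values, lowest adjusted p 0.420), and the 81 values that keep all 4 libraries had the direction of the values reported. Of the 40 values that leave out 1 library, 10 changed sign. Without WT replicate 2 these were HNRNPA1 (−0.14), HNRNPA3 (−0.02), HNRNPC (−0.0011) and HNRNPM (−0.19). Without KO replicate 1 they were HNRNPA3 (−0.18), HNRNPM (−0.23) and HNRNPU (−0.08). Without KO replicate 2 they were HNRNPA2B1 (−0.21) and HNRNPF (−0.00946), and without WT replicate 1 HNRNPU (−0.10). The highest values without 1 library were 0.29 for HNRNPA1, 0.37 for HNRNPA2B1, 0.29 for HNRNPA3, 0.35 for HNRNPC, 0.34 for HNRNPD, 0.42 for HNRNPF, 0.59 for HNRNPM and 0.28 for HNRNPU, and HNRNPH1 and HNRNPK stayed between −0.23 and −0.15 and between 0.10 and 0.14. In fits without 1 library the lone library is assumed to vary like the rest, and the cause of the changes was not tested.

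The median log2 fold change of the 10 ran from 0.0539 to 0.17 without 1 library and from 0.11 to 0.14 otherwise. Over all genes, 31 were called higher and 125 lower with no filter, 29 and 111 with the replicate block, and 1 to 26 higher and 3 to 167 lower without 1 library, beside 5 and 30 as reported. DESeq2 called 4 and 40. The block brought no call among the hnRNP genes (median 0.118). The share difference was 0.0982 percentage points outside mitochondrial and ribosomal protein genes, 0.0949 with pseudogenes added, and 0.0665 to 0.143 without 1 library. Among the partner proteins, 0 to 1 were called lower without 1 library: PRMT5 without KO replicate 2 (−0.90 ± 0.23, adjusted p = 0.0100), against −0.34 ± 0.28 (adjusted p = 0.824) with all libraries. With exon-union lengths, 4 of 10 positions in the order by level were the same. With under 40 counts of HNRNPM per library, depth limits that gene most.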
